A study of Mus musculus with 5 samples.

Results

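Integrins are cell surface receptors made of 1 alpha and 1 beta chain, and the 10 integrin genes described here are those for chains known on NK cells (NKC): Itga1, Itga2, Itga4, Itgae, Itgal, Itgam, Itgav, Itgb1, Itgb2 and Itgb7. They were chosen by name from 22350 protein-coding genes, with earlier results of these data known. Their shares beside those of all genes are therefore descriptive. For each gene, every Runx3 peak and every H3K4me1 peak that overlapped the gene or the 20 kb to either side of it, together its window, was collected. The windows held 21 of 11676 Runx3 peaks and 78 of 34204 H3K4me1 peaks.

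The peaks came from chromatin immunoprecipitation with sequencing (ChIP-seq) in splenic NKC of ICR mice, isolated by negative selection and, by the study's methods but not by the labels, sorted for DX5, and kept for 7 days in medium with IL-2 at 1000 units/ml. There were 2 libraries with an antibody against Runx3, 1 library with an antibody against H3K4me1, a histone mark enriched at enhancers, and 2 control libraries with non-immune serum (NIS). All of them came from the same kind of IL-2-activated NKC, so no comparison with resting or Runx3-deficient cells was made here. Each antibody had 1 deposited list of peaks, called by the authors against NIS, with positions and no height, score or value per library. The Runx3 libraries were joined for this, and the study's methods speak of joined repeats in general, whereas the labels list 1 H3K4me1 library. No value below therefore has a replicate error, and no test between groups was possible. Depth could not be computed from the files. The study's methods state it per antibody, with more uniquely aligned reads for Runx3 than for H3K4me1, so numbers of peaks were not compared between the antibodies. A peak shows where chromatin was recovered, and is not a measure of expression of the gene beside it.

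Runx3 is a transcription factor of cytotoxic lymphocytes that binds the short RUNX motif, and H3K4me1 marks nucleosomes around enhancers in many cell types. Integrins hold lymphocytes to other cells and to the extracellular matrix, and their grip is switched on from inside the cell by talin and the GTPase Rap1. Each beta chain pairs with several alpha chains. Itgb2 with Itgal forms LFA-1, which binds ICAM-1 on target cells, and with Itgam forms Mac-1, a complement receptor. Itgb7 with Itgae binds E-cadherin on epithelium, and with Itga4 binds MAdCAM-1 of gut vessels. Itgb1 pairs with Itga1 and Itga2 as collagen receptors, with Itga4 as the receptor for VCAM-1, and with Itgav, a chain of fibronectin and vitronectin receptors.

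The sequences below are the central 300 bp of 7 Runx3 peaks, read 5′ to 3′ on the plus strand of mm9, with every RUNX motif in capitals (the variants are TGTGGT with T at the end, TGTGGC with C at the end, and TGCGGT as well as TGCGGC with CG inside, each also read as its reverse complement). For each integrin gene with Runx3 peaks outside exons, other than Itgae, the peak within 1 kb of its TSS was taken, and otherwise the peak with the most RUNX motifs in its central 300 bp. The first pair lay next to a TSS, at the beta chains Itgb2 and Itgb7, and each had 1 motif.
Itgb2 intron 1 (chr10:76993777-76994076): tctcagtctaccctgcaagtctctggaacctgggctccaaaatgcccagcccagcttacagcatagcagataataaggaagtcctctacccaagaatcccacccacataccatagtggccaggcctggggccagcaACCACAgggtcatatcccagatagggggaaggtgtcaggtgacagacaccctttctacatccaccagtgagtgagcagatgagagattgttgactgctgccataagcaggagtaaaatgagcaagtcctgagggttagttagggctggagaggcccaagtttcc
Itgb7 intron 1 (chr15:102061380-102061679): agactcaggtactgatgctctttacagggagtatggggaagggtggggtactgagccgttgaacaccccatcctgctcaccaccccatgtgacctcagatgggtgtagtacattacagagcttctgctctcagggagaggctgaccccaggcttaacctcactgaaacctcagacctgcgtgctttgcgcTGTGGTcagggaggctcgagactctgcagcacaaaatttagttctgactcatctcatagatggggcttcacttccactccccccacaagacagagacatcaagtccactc
The peak of Itga4 had 2 RUNX motifs here and no H3K4me1 peak near it, and that of Itgal held 5 RUNX motifs in these 300 bp, each of them TGTGGT.
Itga4 intron 3 (chr2:79106736-79107035): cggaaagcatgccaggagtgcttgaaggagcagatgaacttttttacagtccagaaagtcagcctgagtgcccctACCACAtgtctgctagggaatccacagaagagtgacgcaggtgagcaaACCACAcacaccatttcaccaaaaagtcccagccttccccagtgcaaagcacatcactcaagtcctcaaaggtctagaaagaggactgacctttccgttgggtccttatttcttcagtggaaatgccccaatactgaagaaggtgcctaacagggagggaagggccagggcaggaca
Itgal downstream flank (chr7:134495234-134495533): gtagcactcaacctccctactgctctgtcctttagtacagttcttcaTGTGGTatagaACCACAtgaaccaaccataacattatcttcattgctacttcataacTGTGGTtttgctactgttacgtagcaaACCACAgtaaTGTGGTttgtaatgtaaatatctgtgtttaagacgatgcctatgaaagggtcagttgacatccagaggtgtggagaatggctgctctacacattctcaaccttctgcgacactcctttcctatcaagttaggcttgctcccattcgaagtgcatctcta
The remaining peaks all overlapped an H3K4me1 peak. Those of the collagen receptor chains Itga1 and Itga2 had 4 and 3 RUNX motifs here, and that of Itgam had 3.
Itga1 intron 8 (chr13:115801832-115802131): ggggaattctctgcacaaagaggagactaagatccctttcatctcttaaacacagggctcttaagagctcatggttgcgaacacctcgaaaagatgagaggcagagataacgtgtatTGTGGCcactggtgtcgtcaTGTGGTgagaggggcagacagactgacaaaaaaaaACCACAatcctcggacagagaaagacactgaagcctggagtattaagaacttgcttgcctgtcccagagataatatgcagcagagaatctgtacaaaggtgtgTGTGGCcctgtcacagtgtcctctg
Itga2 intron 1 (chr13:115706480-115706779): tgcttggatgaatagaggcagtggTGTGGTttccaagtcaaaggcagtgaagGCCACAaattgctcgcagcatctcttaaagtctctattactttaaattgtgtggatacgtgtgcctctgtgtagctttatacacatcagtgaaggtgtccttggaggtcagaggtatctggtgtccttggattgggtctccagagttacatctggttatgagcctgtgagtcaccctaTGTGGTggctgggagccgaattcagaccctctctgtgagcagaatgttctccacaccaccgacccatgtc
Itgam upstream flank (chr7:135194370-135194669): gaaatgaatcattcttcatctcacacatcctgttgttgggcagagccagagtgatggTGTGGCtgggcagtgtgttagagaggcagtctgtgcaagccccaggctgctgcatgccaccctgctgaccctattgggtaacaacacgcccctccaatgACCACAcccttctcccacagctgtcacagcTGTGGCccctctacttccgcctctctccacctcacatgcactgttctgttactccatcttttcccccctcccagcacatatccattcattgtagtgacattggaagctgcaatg

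Runx3 peaks were found in the windows of 8 of the 10 integrin genes, a share of 80% (95% Wilson interval 49 to 94.3, counting error only). Over all protein-coding genes the share was 41.1%. The interval does not cover the choice of the genes, which was made with earlier results of these data known. In the order of the 10 names above, the counts of Runx3 peaks were 2, 2, 3, 3, 3, 2, 0, 0, 3 and 3. Itga4, Itgae, Itgal, Itgb2 and Itgb7 thus reached 3 peaks, as did 7.36% of all genes, whereas Itgav and Itgb1 had none. The windows of the integrin genes were longer than usual, with a median of 101 kb (range 55.9 to 184) against 55.4 kb for all genes. Per length, the 10 windows together held 1.98 Runx3 peaks per 100 kb, and the windows of all genes together 0.857. The density was highest at Itgb7, at 5.36 peaks per 100 kb, a value reached by 2.77% of all genes. Itgb2 had 3.98, Itgal 3.80, Itgae 3.10 and Itga4 2.55 peaks per 100 kb. Itgam, Itga2 and Itga1 followed with 1.90, 1.47 and 1.09, the last of them reached by 35.2% of all genes. These densities include the flanks, and within the gene alone Itgal and Itgam had no Runx3 peak.

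H3K4me1 peaks lay in the windows of 9 of the 10 genes, compared with 51.1% of all genes. Itgam had 17, Itgb2 15, Itga2 11, Itgal 10, Itgb7 9, Itgae 8, Itga1 5, Itgav 3 and Itgb1 1, and Itga4 had none. A single one of these peaks lay in the windows of both Itga1 and Itga2, which are neighbours on chromosome 13, 26037 bp apart, and is counted once in the total. Pooled over the 10 windows the density was 7.45 H3K4me1 peaks per 100 kb, against 2.57 for all genes. Marked regions covered 16.6% of the window of Itgb2, 13.3% of that of Itgam, 13.0% of that of Itgb7, 11.1% of that of Itgal and 10.3% of that of Itgae. At the collagen receptor chains they covered 5.50% (Itga2) and 1.79% (Itga1), and at Itgav and Itgb1 1.83% and 0.450%. The windows of the beta2 and beta7 receptor genes, other than Itga4, were thus the most widely marked. These shares include the flanks, where some of the peaks lay nearer to or inside other genes. The covered share within the gene alone was not computed. By number within the gene alone, Itga2 had the most H3K4me1 peaks, 10. Itgb2 had 8, Itgae 7, Itgam 5, Itgb7 3 and Itgal 2. These numbers are not corrected for gene length, which was 96126 bp at Itga2, 35457 bp at Itgb2 and 15941 bp at Itgb7. A Runx3 peak that overlapped an H3K4me1 peak was present at 7 of the 10 genes, compared with 20.5% of all genes. Within the gene itself, without flanks, 6 of the 10 held a Runx3 peak (23.2% of all genes) and 9 held an H3K4me1 peak (31% of all genes).

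**Figure D1:**
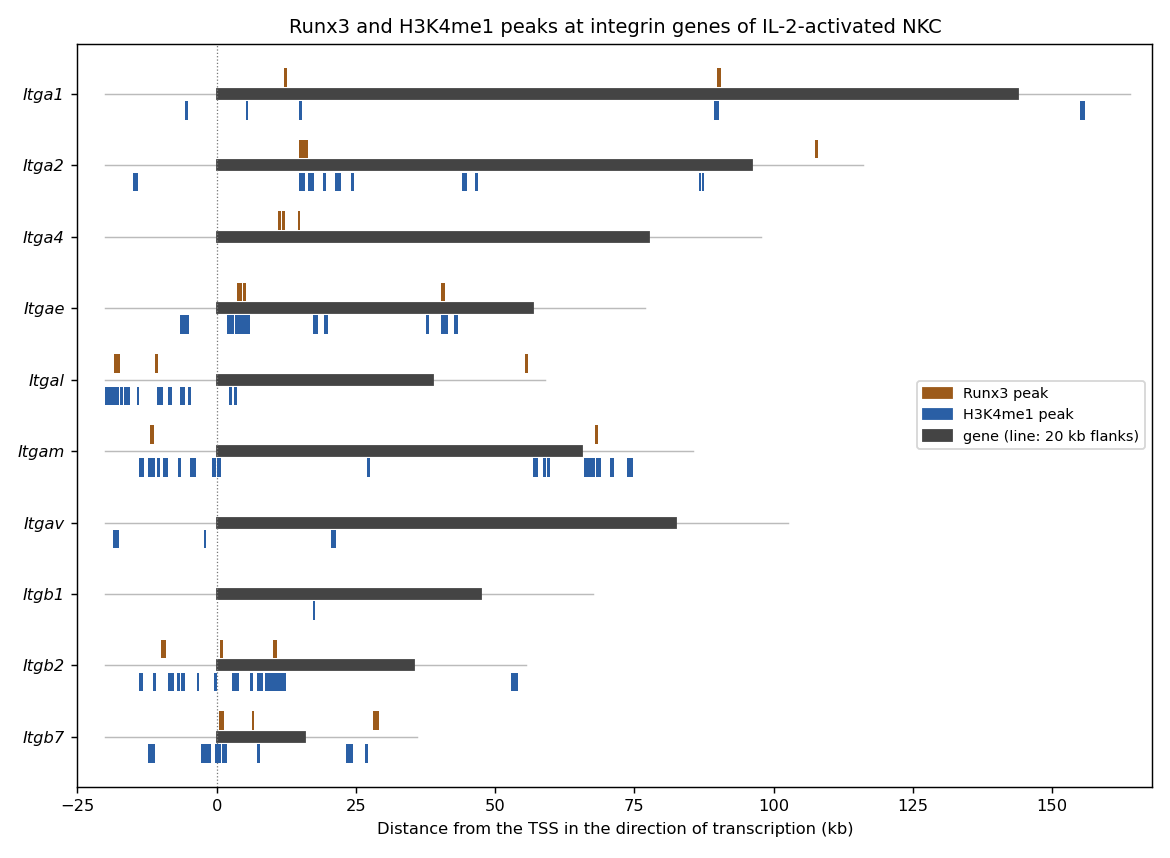
Positions of Runx3 peaks (brown, above) and H3K4me1 peaks (blue, below) at the 10 integrin genes, drawn to scale by distance from the TSS in kb in the direction of transcription; dark bars are genes and thin lines the 20 kb flanks. Runx3 peaks are drawn at 8 genes and are missing at Itgav and Itgb1, and H3K4me1 peaks are missing at Itga4.

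**Figure D2:**
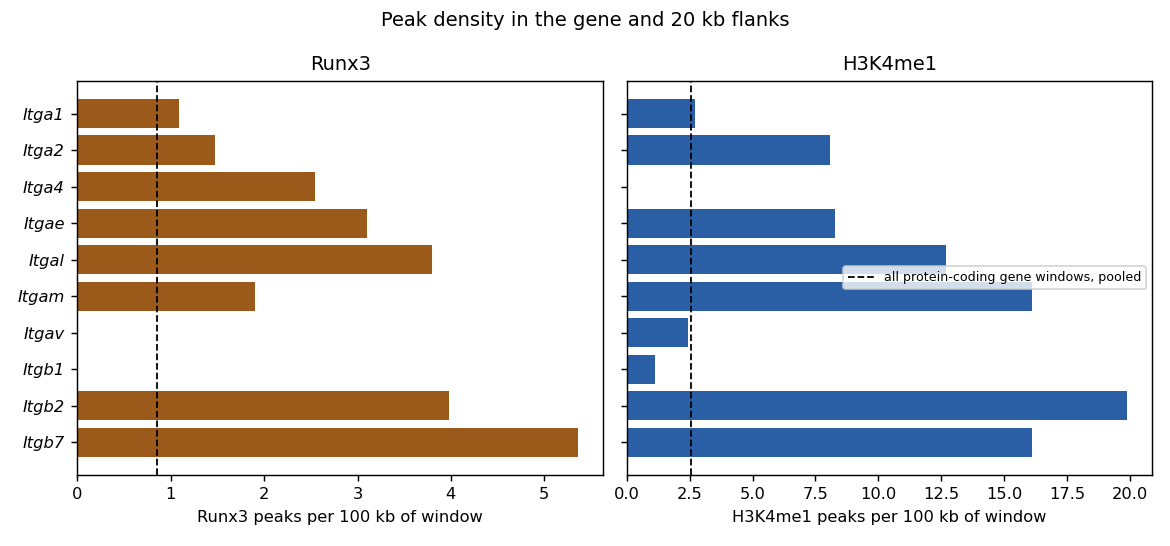
Number of Runx3 peaks (left) and H3K4me1 peaks (right) per 100 kb of window for each integrin gene, as bars with no error since each antibody has 1 peak list; dashed lines give the pooled value of all protein-coding gene windows (0.857 and 2.57). Itgb7 has the highest Runx3 density (5.36) and Itgb2 the highest H3K4me1 density (19.9).

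The shared chain of the beta2 integrins, Itgb2 (chr10:76992997-77028453, plus strand), had 3 Runx3 peaks within 11 kb of its TSS. The first (76983054-76983860) lay 9540 bp upstream, outside H3K4me1 peaks, and was nearer to the TSS of 1810008A18Rik (4899 bp). The second (76993661-76994194) lay in intron 1, 930 bp downstream of the TSS, between an H3K4me1 peak 609 bp to one side and one 1569 bp to the other. It is the peak whose sequence is shown above, with its motif 11 bp from the centre. The third (77003135-77003766), also in intron 1 at 10453 bp, straddled neighbouring H3K4me1 peaks, and its centre fell in the narrow gap between them. Of the 15 H3K4me1 peaks, 7 lay upstream, 7 lay between 3414 and 11928 bp downstream of the TSS, and the last lay beside the next gene, 148 bp from the TSS of Pttg1ip.

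Itgal (chr7:134439774-134478651, plus strand), the alpha chain of LFA-1, had 3 Runx3 peaks, all of them outside the gene. Upstream, at 17935 bp (134421290-134422389) and 10795 bp (134428744-134429214), both overlapped H3K4me1 peaks and were nearer to other genes, Sephs2 (4406 bp) and the predicted gene Gm17511 (1032 bp). Most of the H3K4me1 peaks of Itgal, 8 of 10, lay in this upstream flank, and the other two in introns 2 and 3. The third Runx3 peak (134495085-134495683), 55610 bp downstream of the TSS and beyond the end of the gene, had no H3K4me1 peak within 51581 bp. It too was nearer to another gene, Zfp768 (6486 bp). It held 5 RUNX motifs, and 17.5% of all Runx3 peaks held at least 5.

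At Itgam (chr7:135206154-135271674, plus strand), which encodes CD11b and is used as a marker of NKC maturation, both Runx3 peaks lay outside the gene and on H3K4me1 peaks. The one 11634 bp upstream (135194182-135194859) straddled a pair of H3K4me1 peaks. The other (135274063-135274691) lay downstream and inside the neighbouring integrin gene Itgax, which encodes CD11c, in exon 3, 1316 bp from the start of that gene. It was therefore counted for Itgam by the width of the window only. The TSS of Itgam itself was flanked by H3K4me1 peaks centred 402 bp upstream and 445 bp downstream (Itgam, Itgb2 and Itgb7 had an H3K4me1 peak centred within 1 kb of a TSS, as had 14.6% of all genes), and no Runx3 peak was found within 11 kb of it.

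Itgb7 (chr15:102046426-102062366, minus strand) is the shortest of the 10 genes, and the only one other than Itgb2 with a Runx3 peak centred within 1 kb of a TSS. Of all genes, 13.3% had such a peak. This peak (102061109-102061951) lay in intron 1, 836 bp downstream of the TSS, straddled H3K4me1 peaks on both sides and held an AP-1 motif in the part shown above. A second (102055602-102056094) lay in intron 2 at 6518 bp, 532 bp from the nearest H3K4me1 peak. The third (102033237-102034289) was 316 bp from the TSS of the zinc finger gene Zfp740, downstream of Itgb7, and had no RUNX motif in its central 300 bp.

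Itgae (chr11:72904085-72960948, plus strand), which encodes CD103, was the only integrin gene with 3 Runx3 peaks of which each overlapped an H3K4me1 peak. The pair in intron 1 (72907674-72908682 and 72908917-72909406), 4093 and 5076 bp from the TSS, shared 1 H3K4me1 peak of 2812 bp (72907341-72910152), the widest of the 78. The first of this pair had no RUNX motif in its central 300 bp, and the second had 2 and an AP-1 motif. The third (72944404-72945066), in intron 22, was nearer to the TSS of the kinase gene Gsg2 (7061 bp), which lies inside Itgae on the opposite strand.

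Itga4 (chr2:79095583-79173280, plus strand), the shared alpha chain of the receptors for VCAM-1 and MAdCAM-1, combined 3 Runx3 peaks with no H3K4me1 peak. A window with at least 1 Runx3 peak and no H3K4me1 peak was found at 7.29% of all genes. All 3 peaks (79106636-79107137, 79107325-79107788 and 79110139-79110634) lay in intron 3, between 11303 and 14803 bp from the TSS, and all were narrow, at 502, 464 and 496 bp. The nearest H3K4me1 peak was at least 145578 bp away. The gene lay in a stretch of 429 kb (chr2:78961058-79389878) without any H3K4me1 peak, and these were the 3 Runx3 peaks in that stretch. Of all Runx3 peaks, 7.54% were more than 100 kb from an H3K4me1 peak. In the window of Itga4, 96.2% of 40-mers occurred once in the genome, and the rest of the 429 kb stretch was not examined for this. The cause of the missing H3K4me1 peaks was not tested.

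Of the collagen receptor chains, Itga2 (chr13:115626124-115722249, minus strand), which encodes CD49b, the antigen of the DX5 antibody used in the sort, had the widest Runx3 peak of the 21 (115705891-115707370, 1480 bp). It lay in intron 1, 15619 bp from the TSS, overlapped an H3K4me1 peak and held 8 RUNX motifs, the highest number of the 21. With the one it overlapped, 6 H3K4me1 peaks were centred in intron 1, between 15404 and 24328 bp from the TSS. The other Runx3 peak (115614270-115614831) lay downstream in intron 2 of Mocs2 and outside H3K4me1 peaks. Itga1 (chr13:115748287-115892172, minus strand), which encodes CD49a, had a Runx3 peak in intron 8 (115801618-115802347), 90190 bp from the TSS and on an H3K4me1 peak. Its other Runx3 peak (115879576-115879993), in intron 1, coincided with exon 1 of Pelo, a gene inside that intron, 612 bp from the TSS of Pelo and outside H3K4me1 peaks. It held 4 RUNX motifs. Neither gene had a peak of either kind within 1 kb of its TSS.

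Itgb1 and Itgav had H3K4me1 peaks and no Runx3 peak, as had 17.3% of all genes. Itgb1 (chr8:131209554-131257100, plus strand), the partner of Itga1, Itga2, Itga4 and Itgav in the pairs named above, had 1 H3K4me1 peak (131226900-131227293) in intron 1. The Runx3 peak closest to its TSS (131170207-131170984) lay 38959 bp upstream, outside the 20 kb flank. Itgav (chr2:83564554-83647073, plus strand) had H3K4me1 peaks 18087 and 2119 bp upstream and 20969 bp downstream of the TSS, and the closest Runx3 peak was 216871 bp downstream. Unique 40-mers made up 88.3% of the window of Itgb1 and 94.4% of that of Itgav, compared with 87.6 to 97.2% over the 10 windows. Both had RUNX motifs within 500 bp of the TSS, 3 each, as had all 10 genes (1 to 3 motifs) and 86.4% of all genes. Their TSS regions were richer in CpG than those of the other integrin genes, with 103 CpG in 1001 bp at Itgb1 and 93 at Itgav, compared with 11 to 42 at the rest and a median of 41 over all genes.

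Read as receptors, both chains of LFA-1 (Itgal and Itgb2), of Mac-1 (Itgam and Itgb2), of the E-cadherin receptor (Itgae and Itgb7) and of the MAdCAM-1 receptor (Itga4 and Itgb7) had Runx3 peaks in their windows. In the pairs of Itgb1 with Itga1, Itga2 and Itga4, the alpha chain had 2 or 3 Runx3 peaks and the beta chain had none, and in the pair of Itgb1 with Itgav neither chain had one. This reading rests on the window: with 50 kb flanks Itgb1 had 2 Runx3 peaks, and with peaks assigned by the closest protein-coding TSS (up to 50 kb) Itgb1 had 2 and Itgal 0. The share of gene pairs at large with peaks at both genes was not computed.

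Of the 21 Runx3 peaks, 11 overlapped an H3K4me1 peak, a share of 52.4% (95% Wilson interval 32.4 to 71.7), and over all Runx3 peaks the share was 48.4%. The centre of 8 of them lay inside an H3K4me1 peak. Of the 10 outside H3K4me1 peaks, 5 had one within 5 kb on at least one side. In the opposite direction, 14 of the 78 H3K4me1 peaks (17.9%) overlapped a Runx3 peak, and 19.9% of all H3K4me1 peaks did so. By the centre of the peak, 13 of the 21 lay in introns of the integrin gene, none in its exons, 4 upstream and 4 downstream. The TSS of another protein-coding gene was nearer to 10 of the 21. Their median width was 629 bp (range 418 to 1480), and 7 reached the median width of the whole list, 704 bp.

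**Figure D3:**
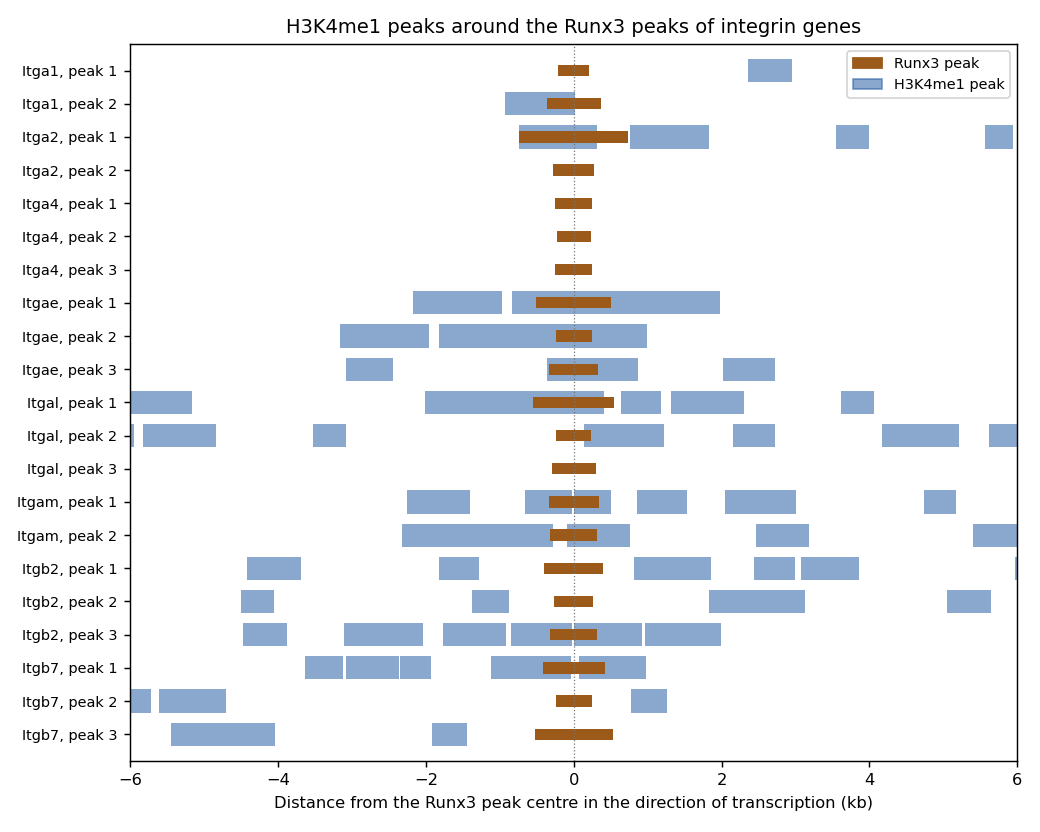
H3K4me1 peaks (blue) within 6 kb of the centre of each of the 21 Runx3 peaks (brown), with distance in kb in the direction of transcription and 1 row per Runx3 peak, numbered within each gene in the direction of transcription. In 11 rows the blue and brown bars overlap. The 3 rows of Itga4, peak 2 of Itga2 and peak 3 of Itgal hold no blue bar.

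A RUNX motif was present in all 21 peaks at full width, with a median of 3 per peak (range 1 to 8), the same median as over all Runx3 peaks, of which 96.0% held one. In the central 300 bp, 18 of 21 held it (85.7%, interval 65.4 to 95), compared with 86.4% of all Runx3 peaks and 40.5% of windows of the same length 10 kb away. The peaks without it there were the first of Itgae, the first of Itgal and the third of Itgb7. Among the variants, TGTGGT was found in 19 of the 21 peaks and in 75.9% of all Runx3 peaks, and TGTGGC in 12 and in 57.7%. The variants with CG were rarer, TGCGGT in 2 peaks (21.8% of all) and TGCGGC in 4 (19.2% of all). A pair of RUNX motifs starting within 50 bp of each other was found in 8 of the 21, a share of 38.1% against 43.7% of all peaks.

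ETS motifs (AGGAAG or CGGAAG, and the forms AGGAAA or CGGAAA, on either strand), bound by a family of factors that includes Ets1, were present in the central 300 bp of 13 of the 21 peaks, compared with 71.8% of all Runx3 peaks and 56.6% of windows 10 kb away. AP-1 motifs (TGAGTCA or TGACTCA, the reverse complements of each other), bound by Jun and Fos proteins, were present in 4, at Itga2, Itgae, Itgb2 and Itgb7. The shares elsewhere were 16.6% of all peaks and 5.40% of windows 10 kb away. The T-box motif GGTGTGA, read on either strand and of the kind bound by T-bet and Eomes, was found in none of the 21 central windows (Wilson interval up to 15.5%). It was found in 8.59% of all peaks and 4.42% of windows 10 kb away. At full width, 2 of the 21 peaks (9.52%) held the T-box motif, compared with 15.7% of all Runx3 peaks. A T-box motif can overlap a RUNX motif. The intervals of these shares over the 21 peaks (40.9 to 79.2% for ETS, 7.67 to 40% for AP-1) held the values of all peaks. The ETS interval also held the value of windows 10 kb away, 56.6%.

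Other genes of the integrin pathway were counted by the same rule, from lists chosen by function. These lists too were chosen with earlier results of these data known, which their intervals do not cover. Of the 16 other integrin genes, 8 (50%, interval 28.0 to 72.0) had a Runx3 peak, with 4 at Itga9 in a window of 334 kb and 2 each at Itga6, Itgad, Itgax, Itgb3 and Itgb4. Their median window was 96.8 kb. Of the 16, 11 had an H3K4me1 peak, compared with 51.1% of all genes. Neither kind of peak was found at 5 of them, and the share of all genes with neither was not computed. All 13 genes that act on integrin activation from inside the cell had a Runx3 peak (interval 77.2 to 100), compared with 41.1% of all genes, and their median window was 109 kb. Rapgef1, an exchange factor for Rap1, and Tln1, which encodes talin, had 5 each. Apbb1ip, which encodes the Rap1 effector RIAM, and Sharpin, an inhibitor of integrin activation, had 3 each. Of 14 genes that signal below integrins, 11 had a Runx3 peak, with 6 each at Ptk2b and Pxn, which encode the kinase Pyk2 and the adaptor paxillin, and 4 each at the kinase genes Fyn and Ptk2. Of 11 ligand genes, 8 did, with 4 at Spp1 (osteopontin), 3 at Icam1, the ligand of LFA-1, and 2 each at Cdh1 (E-cadherin) and Jam2.

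**Figure D4:**
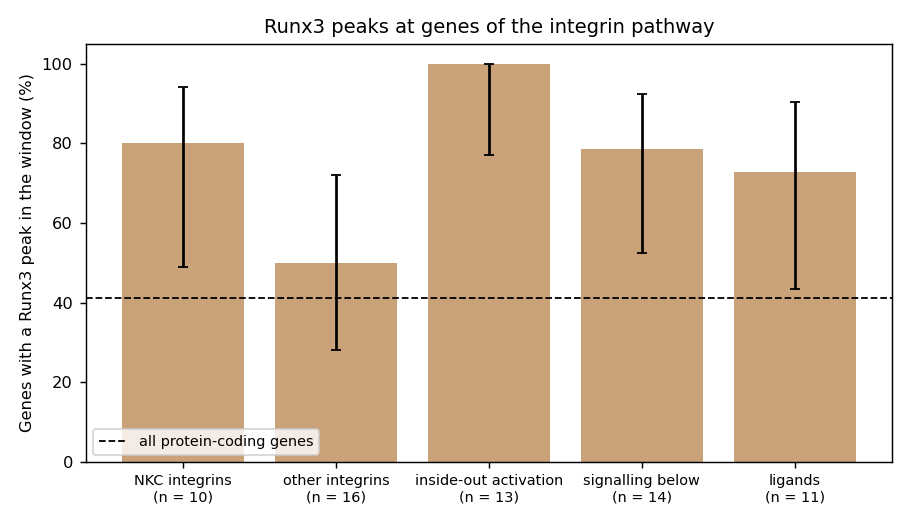
Percentage of genes with at least 1 Runx3 peak in the gene or its 20 kb flanks, for the 10 NKC integrin genes and the pathway lists. Error bars are 95% Wilson intervals, which cover counting error only and not the choice of the lists. The dashed line is the value of all protein-coding genes (41.1%). The interval of the other integrins (28.0 to 72.0) holds the dashed line, and all 13 activation genes have a peak.

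Markers were counted by the same rule to describe the cells. All 6 NKC markers (Ncr1, Klrb1c, Klrk1, Eomes, Tbx21 and Prf1) had Runx3 and H3K4me1 peaks. Of markers of other cells, 2 of 3 for T cells, 2 of 3 for B cells and 1 of 3 for myeloid cells had a Runx3 peak, while Cd8a, Ms4a1 and Lyz2 had neither kind. Over all protein-coding genes, 41.1% had a Runx3 peak and 51.1% an H3K4me1 peak. With 3 genes per list, the counts for T, B and myeloid cells cannot be told from the share of all genes. Peaks do not measure expression, and the part of other cells in the integrin peaks was not tested.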

How the data were processed

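ChIP-seq of IL-2-activated splenic NKC was analysed from 2 deposited peak lists. The authors aligned 40 bp reads to mm9, kept unique alignments and used MACS to call peaks over NIS, on joined reads for Runx3 (for H3K4me1 the labels list 1 library), scaling libraries to the smaller one. The deposited lists hold positions in bp (other than these, no score, p-value or count). Gene models came from GENCODE M1 and sequence from NCBIM37, the same build. Starts were taken as counted from 0 and are given from 1. Peaks were assigned to a gene by an overlap of 1 bp with the gene or its 20 kb flanks, on 19 autosomes and chromosome X. Distances run from peak centres to TSSs. Motifs were matched on both strands. Intervals are 95% Wilson intervals. Counts and motif steps were tested on simulated data. The members and lists were chosen with earlier results of these data known. All 10 genes are named, with up to 4 per list by number of Runx3 peaks (Itgb3 and Itgb4 were added for their tie after values were seen). Syk was not analysed here. Sequences of peaks overlapping exons were not printed, and that of Itgae is not reported here. NIS libraries entered only through peak calling. Calculations used python 3.11.15, numpy 2.4.6, pandas 2.3.3, scipy 1.17.1, numba 0.67.0 and matplotlib 3.10.9.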

Additional observations from a re-analysis of the deposited data

How the results depend on the processing

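Windows and filters changed the numbers of peaks more than the numbers of genes. Within the gene alone, 13 Runx3 and 40 H3K4me1 peaks were counted, and 7 of the 13 Runx3 peaks overlapped H3K4me1. With 5 kb flanks 51 H3K4me1 peaks remained in the count, and with peaks closer than 1 kb joined 49. With 50 kb flanks 11 of 28 Runx3 peaks (39.3%) overlapped H3K4me1, a lower share than the 48.4% of all Runx3 peaks. With only peaks at least as wide as the median of their list, 7 Runx3 and 44 H3K4me1 peaks were left, 5 of the 7 overlapped H3K4me1 and 4 of the 7 held a RUNX motif in the central 300 bp. Genes with a Runx3 peak numbered 6 to 9 of 10 over the alternatives. They included Itgb1 with 50 kb flanks and by the nearest TSS within 50 kb, with 2 peaks each time, and Itgal had none by the nearest TSS, within the gene or with 5 kb flanks. Itgam had none within the gene, and neither Itga4 nor Itgam had a Runx3 peak as wide as the median. Itgav had no Runx3 peak and Itga4 no H3K4me1 peak even with 50 kb flanks. Of 39 values under alternatives, 30 stayed within 1.5 times the value given in the report. The share of all genes with a Runx3 peak was 32.9% over all annotated genes in place of protein-coding ones. No replicate could be left out, since each antibody had 1 list, joined over libraries for Runx3. No paired analysis was possible because the lists carry no replicate and no test was run. Without scores a stricter threshold of the peak caller could not be set, and a gene without a peak may hold binding below it.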
